A study of Homo sapiens with 6 samples.

Results

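Protocadherins, the largest group of genes in the cadherin superfamily, were followed through RNA-seq of Ishikawa cells, an estrogen-responsive line from a human endometrial adenocarcinoma. Members were taken by name: every row of the deposited count table whose gene symbol begins with PCDH, apart from the Y-linked PCDH11Y. This gave 72 of the 26364 genes in the table. Of these, 57 belong to the clustered arrays (15 PCDHA, 19 PCDHB and 23 PCDHG genes), 12 are non-clustered protein-coding genes and 3 are antisense RNAs of PCDH9. The members were chosen by symbol with the measured knockout difference of PCDH19 already known, so every difference between knockout and parental cells below is a description and carries no test for the members.

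The 6 libraries came from 3 cell lines: parental Ishikawa cells and 2 Ishikawa clones with a knockout of ETV4, a transcription factor of the ETS family. Each line was treated with 0.1% DMSO, the vehicle, or with 10 nM E2 (17β-estradiol), and gave 1 poly(A)-selected library per treatment. All lines had been moved to phenol red-free medium with charcoal-treated serum before treatment. The labels give the treatment time as 8 h in the protocol and as 1 h in the sample characteristics. Each knockout line is 1 clone and the parental line is 1 culture per treatment, so knockout and clonal origin cannot be told apart, and every p-value measures the spread between these libraries alone.

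The clustered protocadherins lie in 3 neighbouring arrays on chromosome 5. In the PCDHA and PCDHG arrays each gene has its own first exon and promoter, which is spliced to constant exons shared by the whole array, whereas each PCDHB gene is a single coding exon. In neurons single cells use small, differing sets of these promoters, which are held silent by DNA methylation and repressive chromatin and are opened by the architectural protein CTCF, and the mixture of isoforms on the surface lets a neuron recognise its own branches. The non-clustered members, among them the delta-protocadherins PCDH1, PCDH7, PCDH9, PCDH10, PCDH17 and PCDH19, lie outside the arrays and act in adhesion and cell sorting.

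The promoters of the clustered genes share a short conserved element built around the letters CGCTG, and it is shown for the members on which the results below turn, with PCDHA5 as an example of its array. Windows of 300 bases (250 before to 50 after each start) came from RefSeq on GRCh38.p14, and 59 of the 72 members had at least 1 window. The sequences run 5′ to 3′ on the plus strand of chromosome 5, and capitals mark the CGCTG core.
PCDHA5, chr5:140821539-140821568: cctttcatccacatgatgtCGCTGgacacc
PCDHB2, chr5:141094541-141094570: cggaagagacgcggggtggCGCTGcagcct
PCDHB5, chr5:141135176-141135205: aaattaggacgcctggtggCGCTGcaggct
PCDHB13, chr5:141213862-141213891: ctgtgaggacgcgtggtggCGCTGcaggat
PCDHB16, chr5:141182307-141182336: cagtgagaacgcgtggtggCGCTGcaggtt
PCDHGA4, chr5:141354957-141354986: aggttaagactctgggtgtCGCTGttcacc
PCDHGB1, chr5:141350022-141350051: caagacaacctctgggcgcCGCTGtcgacc
PCDHGB2, chr5:141359918-141359947: tgagaaaacctctgagcgtCGCTGttggtc
PCDHGB4, chr5:141387614-141387643: tagtgctgactctgggcgcCGCTGttggcc
PCDHGA10, chr5:141412928-141412957: ttcttaggactctgagcgcCGCTGttcacc
PCDHGC3, chr5:141475877-141475906: tggctgggactctgtgtgcCGCTGtcggcc
The letters CGCTG alone are common: either strand held them in 48% of all 35116 promoter windows, in 25 of 25 PCDHG windows, 12 of 14 PCDHB, 9 of 13 PCDHA and 8 of 12 non-clustered windows. The flanks differ between arrays, as the 10-base run around the core that was most frequent in each array shows. GGTGGCGCTG was in 12 of 14 PCDHB windows and 0.276% of all windows. GATGTCGCTG was in 6 of 13 PCDHA windows and 0.0427% of all, and GCGCCGCTGT was in 10 of 25 PCDHG windows and 0.131% of all. No window of another array held them. These 3 runs contain CGCTG and were found in the windows they are counted in, so the counts are a description. The ETS core CCGGAAG was in 10.3% of all windows and, among the members, in those of PCDHA5 and PCDHGB2 alone. The estrogen response element GGTCANNNTGACC was in 0.057% of all windows and in no member's window. A match describes letters in the window and was not tied to binding here.

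Library depth ran from 28037392 to 36829479 counts, and the members took 0.0391 to 0.0631% of them. ETV4 itself had 586 counts in the parental DMSO library and 1063 in parental E2, against 122 and 86 in clone 1 and 71 and 81 in clone 2. Its level was lower in the clones by a log2 difference of -3.04 (SE 0.21, adjusted p = 0.00868 in the quasi-likelihood test of edgeR, Benjamini-Hochberg adjusted). The 7 epithelial markers all averaged at least 1 CPM and summed to 2412 to 3320 CPM. The 6 neuronal markers summed to 2.06 to 4.30 CPM with 1 at 0 in every library, and the 3 immune markers to 2.29 to 4.68 CPM with 1 at 0. The endothelial sum, mostly VWF, was 2.70 to 4.55 CPM in the clones and 1.65 to 2.46 CPM in parental cells, while PECAM1 and CDH5 had at most 2 counts in any library. The 6 stromal markers summed to 46.7 to 74.4 CPM in the clones and 58.2 to 86.1 CPM in parental cells, mostly COL1A1. Among them COL3A1 was 1.34 to 3.35 CPM in the clones and 7.93 to 9.72 CPM in the parental line. The part of these markers in the results for the members was not tested. The parental DMSO library stood apart in scaling, with a TMM factor of 0.899 against 1.01 to 1.04 in the others.

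Levels are given as CPM, counts divided by the TMM-scaled library total and multiplied by 1000000, always in the order DMSO then E2, and are not compared between genes because they are not per length. Tests used the 52 members that passed edgeR's filter on low counts: 23 PCDHG, 18 PCDHB, 10 non-clustered genes, PCDHA4 and no antisense RNA. Of the 20 that did not pass, PCDH18, PCDHA13 and PCDHB1 had 0 counts in every library, PCDH8 had at most 1, and the PCDH9 antisense RNAs had at most 2. Reads from the constant exons of PCDHA and PCDHG, from near-identical PCDHB genes and pseudogenes, from the X and Y copies of PCDH11 and from PCDH9 and its antisense RNAs could be counted under more than 1 name, so the split between such genes is uncertain.

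The PCDHB and PCDHG arrays, each taken as a sum over its genes, stood higher in both ETV4 knockout clones than in the parental line. The summed PCDHB level was 46.0 and 46.2 CPM in parental cells, 116.2 and 97.3 CPM in clone 1, and 146.6 and 113.7 CPM in clone 2. In DMSO that is 2.53 times the parental sum in clone 1 and 3.19 times in clone 2, and in E2 2.11 and 2.46 times. The summed PCDHG level was 96.0 and 101.7 CPM in parental cells, 131.9 and 126.8 CPM in clone 1, and 197.1 and 169.1 CPM in clone 2. Those are ratios of 1.37 and 2.05 in DMSO and of 1.25 and 1.66 in E2. In bulk RNA, a larger share of cells with a transcript and more transcript per cell cannot be told apart.

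**Figure D1:**
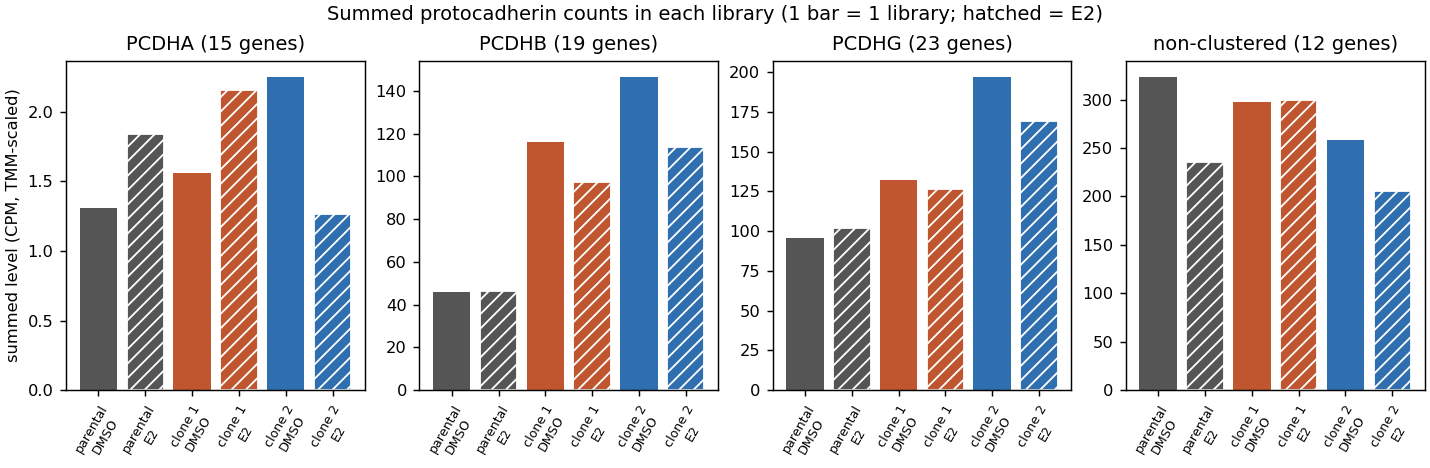
Summed level of each protocadherin class in each of the 6 libraries, in TMM-scaled CPM on axes that start at 0, with 1 bar per library and E2 hatched. All 4 clone bars stand above both parental bars for PCDHB and PCDHG, and they overlap the parental bars for PCDHA and the non-clustered genes.

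All 4 clone libraries lay above both parental libraries for 23 of the 52 tested members: 10 of 18 PCDHB, 12 of 23 PCDHG and PCDH19. Over all 15611 genes tested the same held for 8.53%. The members counted include some near the floor, such as the pseudogene PCDHB17P, with 2 counts in clone 2 E2 and 2 in parental E2. PCDHB17P had 0 counts in parental DMSO and is also among the 2-fold higher PCDHB genes in DMSO below. All 4 lay below for PCDH7 and PCDH9, against 7.83% of all genes. Within DMSO, 15 members had at least 2-fold higher levels in both clones (8 PCDHB, 5 PCDHG, PCDH12 and PCDH19; 4.14% of all genes), and within E2 7 were (4 PCDHB, 2 PCDHG and PCDH19; 1.34% of all genes). PCDH7 was the 1 member at least 2-fold lower in both clones, in DMSO (1.13% of all genes) and in E2 (0.935%). Over both treatments the median log2 difference was 1.34 for PCDHB and 1.00 for PCDHG, beside 0.01 for all genes. Since the members were drawn up with this contrast known, nothing is read from these shares and medians.

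In RefSeq order along the PCDHB array, each of the 8 consecutive genes from PCDHB8 to PCDHB14 had all 4 clone libraries above both parental ones. PCDHB13, an adhesion isoform of the array, was at 8.91 and 8.20 CPM in parental cells, 23.6 and 19.5 in clone 1, and 28.5 and 21.4 in clone 2, a log2 difference of 1.43 (SE 0.16). Its neighbour PCDHB14 was at 5.88 and 8.31 CPM in parental cells, 19.0 and 20.3 in clone 1, and 29.7 and 24.1 in clone 2, a difference of 1.72 (SE 0.26). For both genes every clone library was above both parental libraries by more than the parental libraries differed from each other.

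PCDHB8 was at 1.88 and 3.23 CPM in parental cells, 11.6 and 9.32 in clone 1, and 10.4 and 8.03 in clone 2. PCDHB16 was at 3.02 and 2.51 CPM in parental cells, 8.57 and 6.37 in clone 1, and 19.9 and 16.0 in clone 2. PCDHB11 was at 6.89 and 6.52 CPM in parental cells, 15.3 and 12.0 in clone 1, and 17.1 and 12.8 in clone 2. These 3 isoforms also kept all clone libraries above the parental ones, with log2 differences of 1.93 (SE 0.30), 2.19 (SE 0.50) and 1.08 (SE 0.17), and PCDHB16 was higher in clone 2 than in clone 1. PCDHB10 was at 1.01 and 0.668 CPM in parental cells, 2.62 and 1.64 in clone 1, and 2.08 and 1.23 in clone 2. PCDHB9 was at 0.807 and 0.801 CPM in parental cells, 2.18 and 0.857 in clone 1, and 2.63 and 2.80 in clone 2. Both were low, and the libraries of clone 1 differed more from each other than the parental libraries did.

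The other PCDHB genes that averaged at least 1 CPM did not share 1 pattern. PCDHB5 was at 2.18 and 2.75 CPM in parental cells, 14.5 and 13.0 in clone 1, and 0.683 and 0.547 in clone 2, high in clone 1 and below the parental line in clone 2. PCDHB2 was at 6.42 and 5.02 CPM in parental cells, 6.78 and 3.77 in clone 1, and 16.0 and 12.5 in clone 2. PCDHB15 was at 2.22 and 1.95 CPM in parental cells, 1.93 and 1.37 in clone 1, and 5.19 and 3.69 in clone 2. In both genes the clone 2 libraries lay above both parental libraries, as they did for the pseudogene PCDHB18P, at 1.45 and 0.935 CPM in parental cells, 1.34 and 0.822 in clone 1, and 3.72 and 2.73 in clone 2. The clone 1 libraries lay below the parental ones for PCDHB15 and overlapped them for PCDHB2 and PCDHB18P. PCDHB4 was at 0.840 and 0.454 CPM in parental cells, 2.43 and 1.88 in clone 1, and 1.30 and 0.649 in clone 2, higher than the parental line in clone 1. PCDHB12 was at 2.49 and 2.46 CPM in parental cells, 3.32 and 2.95 in clone 1, and 3.76 and 2.66 in clone 2. PCDHB6 was at 1.45 and 1.26 CPM in parental cells, 1.81 and 1.95 in clone 1, and 1.37 and 1.13 in clone 2. These 2 isoforms stayed within 2-fold of the parental line in both clones, although every clone library of PCDHB12 lay above the parental ones.

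**Figure D2:**
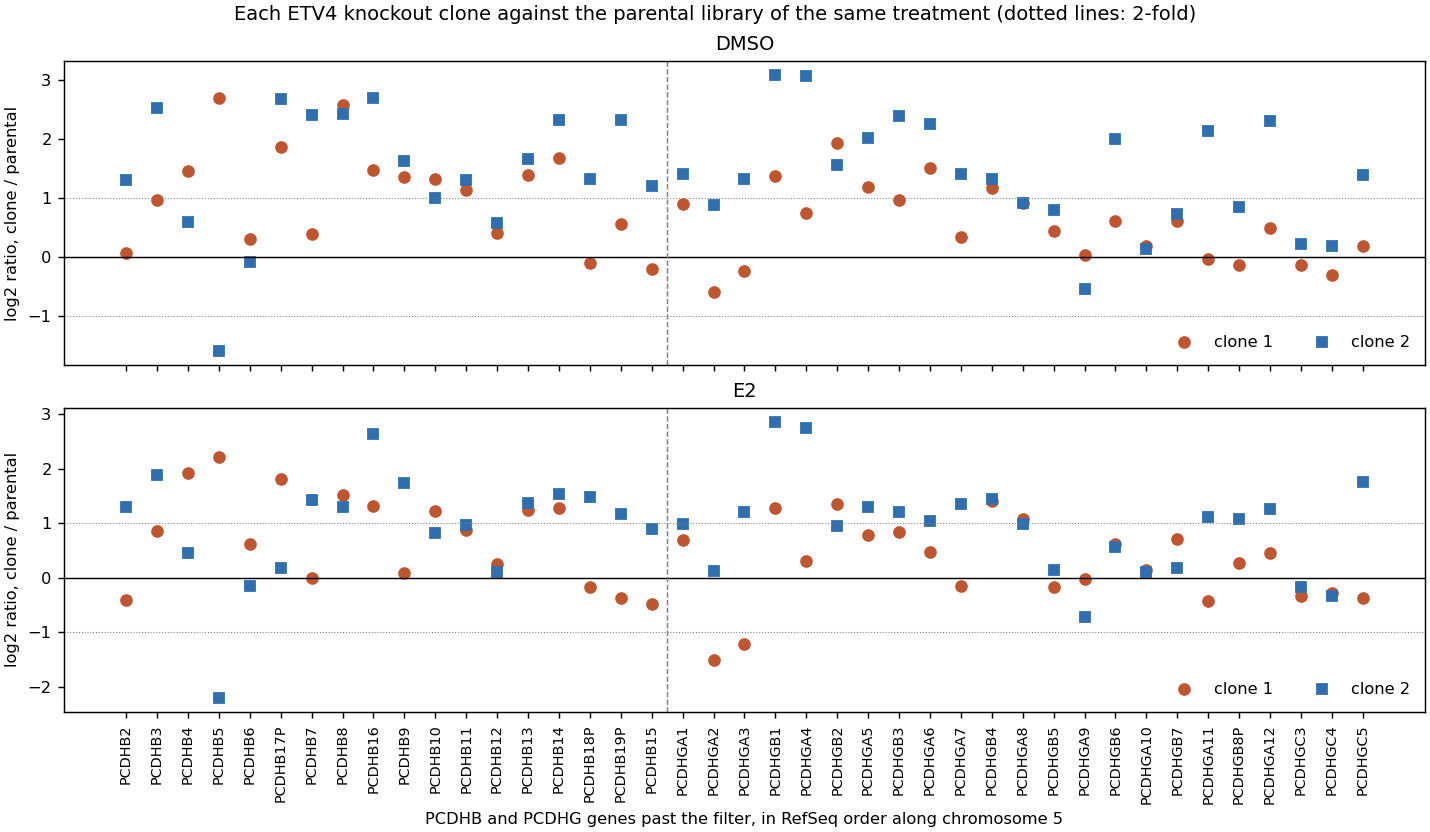
Log2 ratio of each clone to the parental library of the same treatment for the 41 PCDHB and PCDHG genes that passed the filter, in RefSeq order along chromosome 5, with DMSO above and E2 below. Points of both clones lie above the upper dotted line, a 2-fold ratio, for PCDHB8, PCDHB16, PCDHB13, PCDHB14, PCDHGB1 and PCDHGB4 in both panels, while PCDHB5 lies on opposite sides of 0 in the clones.

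In the PCDHG array the B-type isoforms PCDHGB1, PCDHGB2 and PCDHGB4 stood higher in both clones, as did several A-type isoforms given below. The low B-type isoforms PCDHGB5 and PCDHGB6 overlapped the parental line. Of the C-type isoforms at the end of the array, PCDHGC3 and PCDHGC4 differed little. The low C-type PCDHGC5 had a log2 difference of 1.14 (SE 0.78) and also overlapped. PCDHGB4 was at 15.0 and 11.6 CPM in parental cells, 33.9 and 30.8 in clone 1, and 37.7 and 31.6 in clone 2, a log2 difference of 1.34 (SE 0.14). PCDHGB2 was at 1.85 and 2.59 CPM in parental cells, 7.28 and 6.68 in clone 1, and 5.60 and 5.09 in clone 2, a difference of 1.47 (SE 0.27). PCDHGB1 was at 2.22 and 2.22 CPM in parental cells, 5.83 and 5.48 in clone 1, and 19.4 and 16.5 in clone 2, a difference of 2.40 (SE 0.65). In all 3 the 4 clone libraries lay above both parental libraries, and for PCDHGB1 the clones also lay apart from each other.

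PCDHGA4 was at 3.66 and 4.09 CPM in parental cells, 6.22 and 5.04 in clone 1, and 31.1 and 27.8 in clone 2, and its difference of 2.17 (SE 0.87) came largely from clone 2. PCDHGA1 was at 2.18 and 2.64 CPM in parental cells, 4.16 and 4.28 in clone 1, and 5.91 and 5.29 in clone 2. PCDHGA8 was at 1.71 and 1.42 CPM in parental cells, 3.29 and 3.05 in clone 1, and 3.31 and 2.87 in clone 2. Both had all clone libraries above the parental ones. PCDHGA6 was at 0.605 and 1.34 CPM in parental cells, 1.84 and 1.88 in clone 1, and 3.14 and 2.80 in clone 2. PCDHGA5 was at 0.639 and 0.588 CPM in parental cells, 1.53 and 1.06 in clone 1, and 2.80 and 1.54 in clone 2. PCDHGB3 was at 0.471 and 0.721 CPM in parental cells, 0.977 and 1.34 in clone 1, and 2.73 and 1.74 in clone 2. Each of these low isoforms was above both parental libraries in all 4 clone libraries. PCDHGB7 was at 2.12 and 2.32 CPM in parental cells, 3.26 and 3.84 in clone 1, and 3.55 and 2.63 in clone 2, likewise without overlap, although clone 2 in E2 was close to parental E2. PCDHGA11 was at 0.941 and 1.36 CPM in parental cells, 0.921 and 0.994 in clone 1, and 4.37 and 3.04 in clone 2, higher in clone 2 alone.

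Other PCDHG isoforms varied little between lines. PCDHGA10 was at 19.1 and 18.8 CPM in parental cells, 21.7 and 20.6 in clone 1, and 20.9 and 20.2 in clone 2, a log2 difference of 0.14 (SE 0.13), and all its clone libraries lay just above the parental ones. PCDHGC3, a C-type isoform that many tissues express, was at 28.7 and 36.7 CPM in parental cells, 26.3 and 29.0 in clone 1, and 33.7 and 32.8 in clone 2, a difference of -0.10 (SE 0.16). PCDHGC4, the C-type isoform known for its part in neuronal survival, was at 12.4 and 10.3 CPM in parental cells, 10.1 and 8.46 in clone 1, and 14.2 and 8.16 in clone 2, a difference of -0.18 (SE 0.19). PCDHGA9 was at 1.81 and 1.74 CPM in parental cells, 1.87 and 1.71 in clone 1, and 1.23 and 1.02 in clone 2, a difference of -0.28 (SE 0.33). The groups overlapped for PCDHGC3, PCDHGC4 and PCDHGA9, although both clone 2 libraries of PCDHGA9 lay below those of the other lines. As a share of the summed PCDHB and PCDHG counts, PCDHGC3 made up 20.2 and 24.8% in parental cells, 10.6 and 12.9% in clone 1, and 9.80 and 11.6% in clone 2. PCDHGA4 made up 2.58 and 2.76% in parental cells, 2.51 and 2.25% in clone 1, and 9.05 and 9.82% in clone 2, so the mixture of isoforms differed between the clones as well.

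The PCDHA array was nearly silent in every library. Its 15 genes summed to 1.31 and 1.84 CPM in parental cells, 1.56 and 2.16 CPM in clone 1, and 2.25 and 1.26 CPM in clone 2. PCDHA4, its only tested gene, was at 0.706 and 0.908 CPM in parental cells, 0.753 and 1.13 in clone 1, and 1.13 and 0.683 in clone 2. The lines overlapped, and the 14 untested PCDHA genes, among them the C-type PCDHAC1 and PCDHAC2, had at most 10 counts in any library.

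Among the non-clustered genes, PCDH19 alone had all 4 clone libraries above both parental ones. PCDH19 is an X-linked delta-protocadherin that partners with N-cadherin and is known for a childhood epilepsy caused by its mutation. Its counts were 321 and 720 in parental cells, 3319 and 3592 in clone 1, and 2627 and 2413 in clone 2. Its level was 10.8 and 19.2 CPM in parental cells, 92.6 and 123 in clone 1, and 89.7 and 82.4 in clone 2, a log2 difference of 2.73 (SE 0.25). The 95% Wilson interval for parental DMSO, which covers counting error only, was 9.67 to 12.0 CPM. The log2 ratios to the parental library were 3.09 for clone 1 and 3.05 for clone 2 in DMSO, and 2.67 and 2.10 in E2.

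PCDH7, a delta-protocadherin linked to adhesion and signalling in several carcinomas, went the other way. It was at 14.7 and 5.66 CPM in parental cells, 1.67 and 0.754 in clone 1, and 1.74 and 0.751 in clone 2, a log2 difference of -3.01 (SE 0.19). PCDH9, a delta-protocadherin best known from the nervous system, was at 266 and 184 CPM in parental cells, 168 and 143 in clone 1, and 136 and 99.1 in clone 2, a difference of -0.71 (SE 0.18). In both genes all 4 clone libraries lay below both parental ones, and for PCDH9 the margin between clone 1 in DMSO and parental E2 was small.

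**Figure D3:**
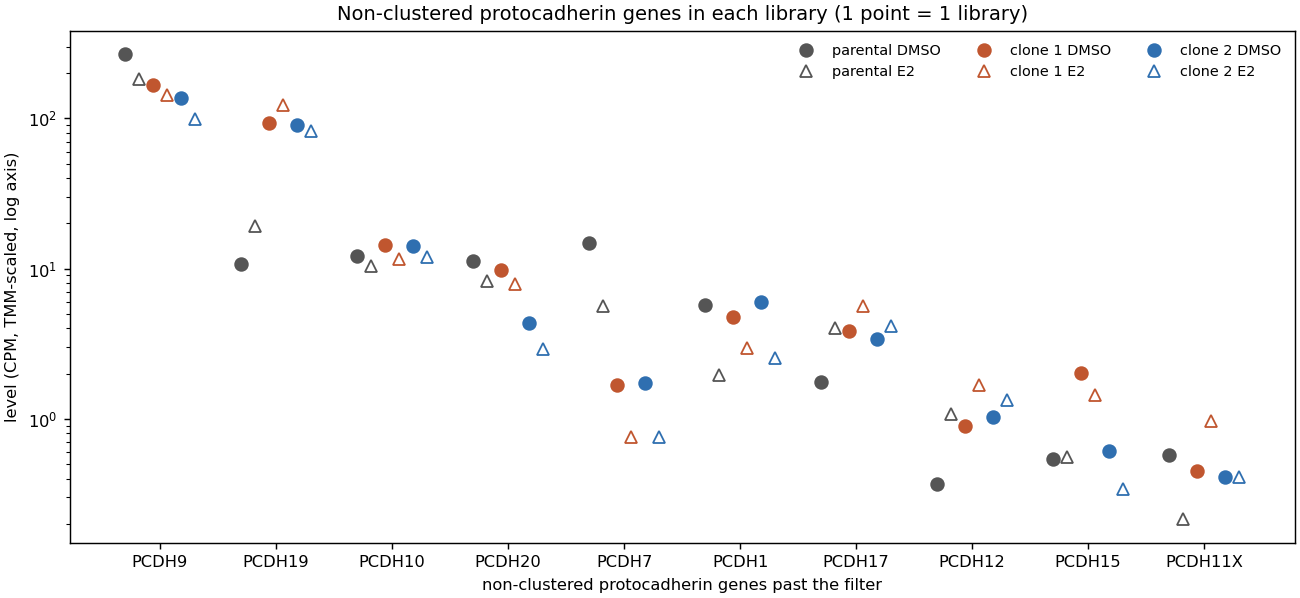
Level of the 10 non-clustered genes that passed the filter in each library, in TMM-scaled CPM on a log axis, with 1 point per library, circles for DMSO and triangles for E2. The clone points of PCDH19 lie between 82.4 and 123.1 CPM, above the parental points at 10.8 and 19.2 CPM, and those of PCDH7 lie below its parental points.

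The remaining non-clustered genes overlapped between clones and parental line. PCDH10, a delta-protocadherin often silenced by methylation in tumours, was at 12.1 and 10.4 CPM in parental cells, 14.5 and 11.5 in clone 1, and 14.2 and 12.0 in clone 2. PCDH17, another such gene, was at 1.75 and 4.03 CPM in parental cells, 3.82 and 5.62 in clone 1, and 3.41 and 4.17 in clone 2. PCDH20 was at 11.3 and 8.26 CPM in parental cells, 9.74 and 7.92 in clone 1, and 4.37 and 2.90 in clone 2, lower in clone 2 than in the other lines. PCDH1, which is expressed in airway and other epithelia, was at 5.68 and 1.95 CPM in parental cells, 4.74 and 2.95 in clone 1, and 5.97 and 2.53 in clone 2. PCDH12, best known from endothelium, was at 0.370 and 1.07 CPM in parental cells, 0.893 and 1.68 in clone 1, and 1.02 and 1.33 in clone 2. All 3 E2 libraries lay below all 3 DMSO libraries for PCDH1 and above them for PCDH12. The share of all genes that separate in this way was not counted, and neither gene was called for E2 over all lines in edgeR. PCDH15, part of the tip link of inner-ear hair cells, was at 0.538 and 0.561 CPM in parental cells, 2.01 and 1.44 in clone 1, and 0.615 and 0.342 in clone 2. PCDH11X was at 0.571 and 0.214 CPM in parental cells, 0.446 and 0.960 in clone 1, and 0.410 and 0.410 in clone 2. Both were low in all libraries, with PCDH15 highest in clone 1.

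The low clustered members, with a mean between 0.2 and 1 CPM, were PCDHA4, given above, and PCDHB3, PCDHB7, PCDHB19P, PCDHGA2, PCDHGA3, PCDHGA7, PCDHGB5, PCDHGB6, PCDHGA12 and PCDHGC5. PCDHB3 was at 0.269 and 0.427 CPM in parental cells, 0.586 and 0.822 in clone 1, and 1.84 and 1.74 in clone 2, with all clone libraries above the parental ones. PCDHB7 was at 0.134 and 0.240 CPM in parental cells, 0.195 and 0.240 in clone 1, and 0.990 and 0.751 in clone 2. PCDHB19P was at 0.168 and 0.374 CPM in parental cells, 0.279 and 0.274 in clone 1, and 1.09 and 0.922 in clone 2. Both were highest in clone 2. PCDHGA12 was at 0.101 and 0.134 CPM in parental cells, 0.167 and 0.206 in clone 1, and 0.751 and 0.410 in clone 2. PCDHGB6 was at 0.269 and 0.561 CPM in parental cells, 0.446 and 0.891 in clone 1, and 1.26 and 0.854 in clone 2. PCDHGC5 was at 0.235 and 0.240 CPM in parental cells, 0.279 and 0.171 in clone 1, and 0.717 and 0.956 in clone 2. Each of these isoforms too had its highest value in clone 2. The others, PCDHGA2, PCDHGA3, PCDHGA7 and PCDHGB5, ranged from 0.103 to 1.67 CPM and had both clone 2 libraries above the other 4. For PCDHGA2 and PCDHGA3 both clone 1 libraries lay below the parental ones. The pseudogenes PCDHB17P and PCDHGB8P had at most 12 counts in any library.

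The clones differed from each other at the clustered genes, and this contrast was not used to choose the members. PCDHGA4, PCDHGB1, PCDHB16 and PCDHB2 were higher in clone 2 than in clone 1, and PCDHB5 and the non-clustered PCDH20 were lower. These 6 of 52 tested members passed an adjusted p of 0.05 over both treatments, against 0.871% of all genes. At an unadjusted p of 0.05, 17 members were higher and 6 lower, against 12.1% of all genes in either direction. The median log2 difference was 0.72 for PCDHG and 0.33 for PCDHB, beside 0.00 for all genes. With only genes of at least 10 counts in every library, these medians were smaller, at 0.42 and 0.18, beside 0.01 for all genes.

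PCDHB5 was 14.5 and 13.0 CPM in clone 1 against 0.683 and 0.547 CPM in clone 2, a log2 difference of -4.47 (SE 0.26, adjusted p = 0.00482 in the quasi-likelihood test of edgeR, Benjamini-Hochberg adjusted). The parental line, at 2.18 and 2.75 CPM, lay between them. Its promoter element, shown above, carries the same GGTGGCGCTG run as that of PCDHB13, which was 23.6 and 19.5 CPM in clone 1 and 28.5 and 21.4 CPM in clone 2. That run was in 12 of 14 PCDHB windows of the reference genome, and a link between it and these levels was not tested. PCDHGA4 was 6.22 and 5.04 CPM in clone 1 and 31.1 and 27.8 CPM in clone 2, a difference of 2.39 (SE 0.18, adjusted p = 0.00573 by the same edgeR test). PCDHGB1, which lies just before it in the array, differed by 1.66 (SE 0.17, edgeR adjusted p = 0.0133), whereas the next B-type exon, PCDHGB2, differed by -0.39 (SE 0.23, edgeR adjusted p = 0.535). PCDHB16 differed by 1.27 (SE 0.16, edgeR adjusted p = 0.0328) and PCDHB2 by 1.47 (SE 0.20, edgeR adjusted p = 0.0408). In all 4 genes that were higher in clone 2, both of its libraries lay above both libraries of clone 1. PCDH20 was 9.74 and 7.92 CPM in clone 1 and 4.37 and 2.90 CPM in clone 2, a difference of -1.30 (SE 0.18, edgeR adjusted p = 0.0448).

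**Figure D4:**
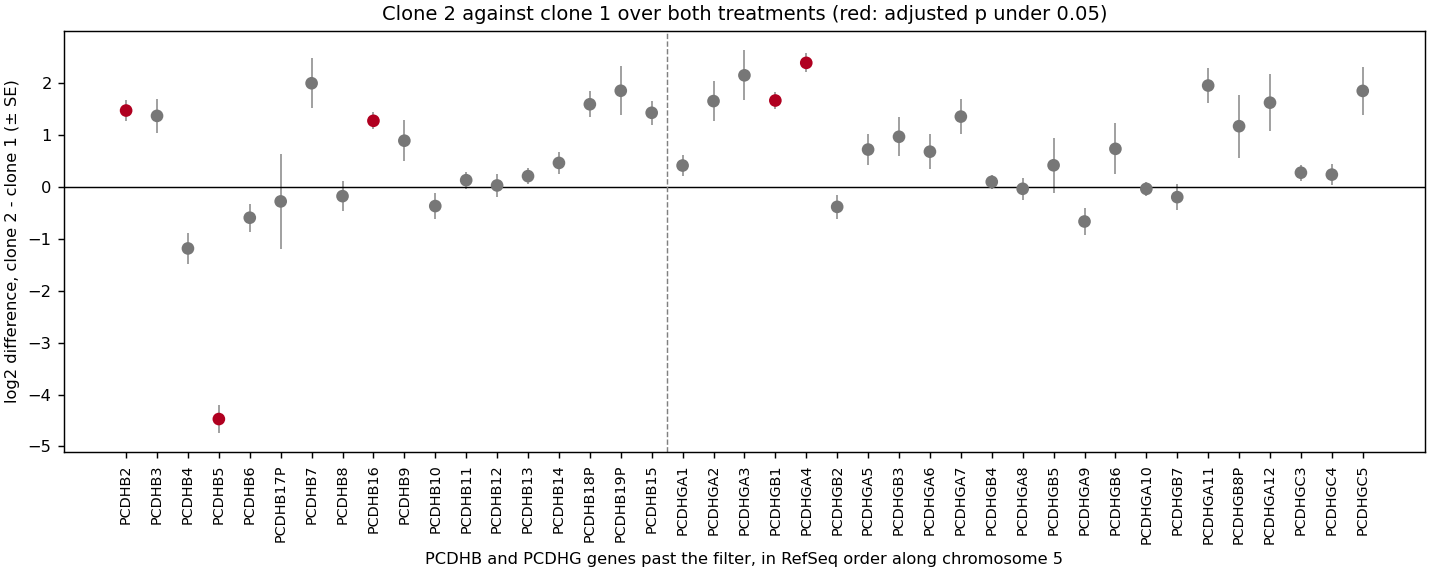
Log2 difference between clone 2 and clone 1 over both treatments, with its SE, for the 41 PCDHB and PCDHG genes that passed the filter, in RefSeq order along chromosome 5. Red points passed an adjusted p of 0.05 in edgeR's fit across all genes: PCDHB2, PCDHB16, PCDHGB1 and PCDHGA4 above 0, and PCDHB5 at -4.47.

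In both treatments alike, 14 members were at least 2-fold higher in clone 2 (7 PCDHB and 7 PCDHG genes; 1.06% of all genes) and 3 at least 2-fold lower (PCDHB5, PCDH15 and PCDH20; 1.89% of all genes). Among the higher ones, PCDHB3, PCDHB7, PCDHB19P, PCDHGA2, PCDHGA3, PCDHGA7 and PCDHGC5 averaged under 1 CPM. PCDH19 differed between the clones by -0.29 (SE 0.23, edgeR adjusted p = 0.621) and PCDH7 by 0.03 (SE 0.24, edgeR adjusted p = 0.961). PCDHB13 differed by 0.20 (SE 0.15) and PCDHGB4 by 0.09 (SE 0.14). None of these 4 differences passed the test, which does not show that the clones are equal there. Without clone 2 in E2 the count of called members was 13 (5.85% of all genes), without either parental library it was 24 (17.8%), and in a fit of the 4 clone libraries alone it was 25 (20 higher and 5 lower in clone 2, against 18.3% of all genes). Without clone 1 in DMSO (1.2% of all genes) or in E2 (1.11%) it was 4. PCDHB5, PCDHGA4 and PCDHGB1 were called in every alternative tried. With only genes of at least 10 counts in every library tested, those 3 alone were called (0.456% of all genes). PCDHB16, PCDHB2 and PCDH20 lost their calls there (edgeR adjusted p = 0.0536, 0.0642 and 0.0746) and without clone 1 in E2 (0.206, 0.185 and 0.220). PCDHB16 and PCDH20 also lost theirs without clone 1 in DMSO (0.113 and 0.0771), and PCDH20 with libraries scaled by total counts (0.0664).

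In the fit over all lines 1 protocadherin was called for E2, a share of the members near that of all genes. PCDH7 was lower after E2 in each line, from 14.7 to 5.66 CPM in parental cells, 1.67 to 0.754 CPM in clone 1 and 1.74 to 0.751 CPM in clone 2. Its log2 difference was -1.26 (SE 0.20, adjusted p = 0.0436 in the quasi-likelihood test of edgeR, Benjamini-Hochberg adjusted), and it was the only 1 of 52 members called, against 1.13% of all genes. At an unadjusted p of 0.05, 2 members were higher and 4 lower, a smaller share than the 20.4% of all genes in either direction. The call for PCDH7 was lost when any 1 of clone 1 in DMSO, clone 1 in E2, clone 2 in E2, parental DMSO or parental E2 was left out, without the parental line, and with total counts (edgeR adjusted p = 0.0608). Its log2 difference stayed between -1.30 and -1.18 in those fits. With clone 2 left out altogether, 5 members were called: PCDH17, PCDH12 and PCDH19 higher after E2, PCDH7 and PCDH1 lower (21.6% of all genes).

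PCDH1 had a log2 difference of similar size, -1.16 (SE 0.23, edgeR adjusted p = 0.0832), and was lower after E2 in all 3 lines. PCDH12, at 0.91 (SE 0.32, edgeR adjusted p = 0.203), and PCDH17, at 0.68 (SE 0.25, edgeR adjusted p = 0.214), had higher values after E2 in all 3 lines without passing the test. PCDH9 differed by -0.40 (SE 0.18, edgeR adjusted p = 0.264) and PCDH10 by -0.26 (edgeR adjusted p = 0.308). PCDH19 differed by 0.38 (SE 0.20, edgeR adjusted p = 0.326), with log2 ratios of 0.83 in parental cells, 0.41 in clone 1 and -0.12 in clone 2.

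**Figure D5:**
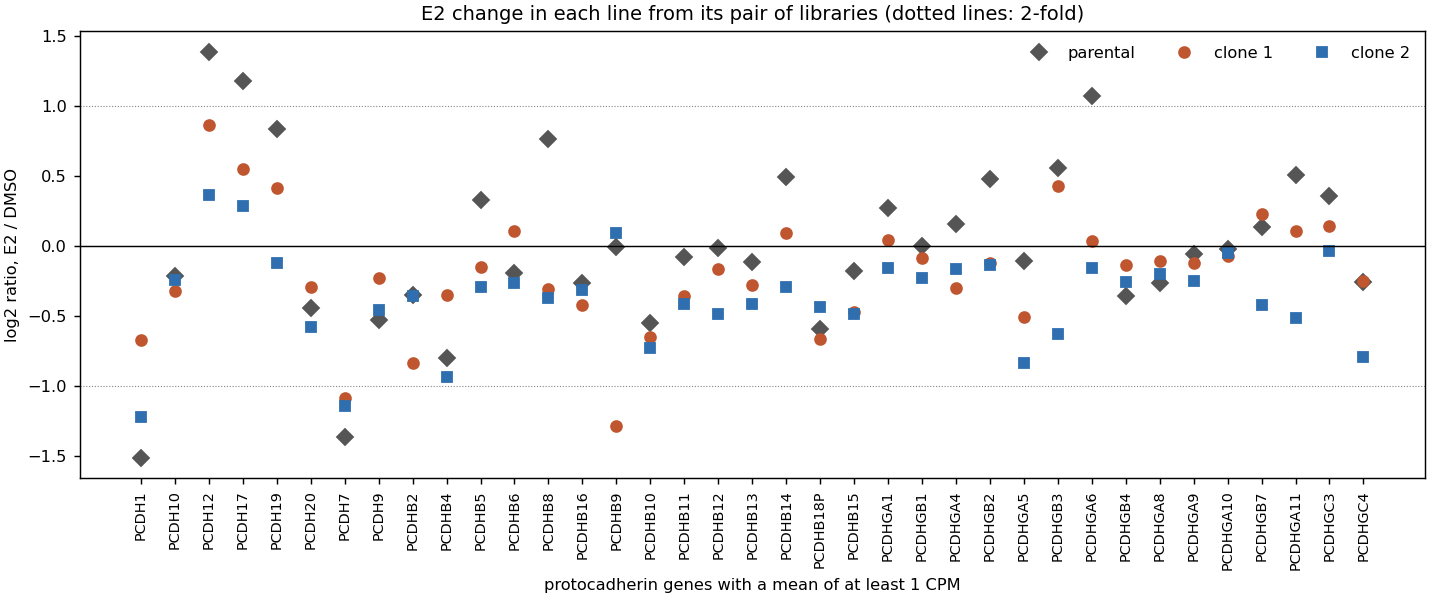
Log2 ratio of E2 to DMSO in each line for the 37 protocadherin genes that averaged at least 1 CPM, from 1 pair of libraries per line. PCDH7 lies below -1 in all 3 lines, and PCDH12 and PCDH17 lie above 0 in all 3.

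Of the 42 tested clustered genes, 27 were lower after E2 in clone 1 and 39 in clone 2, where 50% and 47.3% of all genes were. Their median log2 ratios were -0.13 and -0.33. In clone 1, 9 of 23 PCDHG genes were higher. In the parental line 20 clustered genes were lower and 22 higher, with a median of 0.08, and 50% of all genes were lower. In the fit of the clones the median log2 difference was -0.36 for PCDHB and -0.20 for PCDHG. Without clone 2 in DMSO the PCDHG median turned to 0.29, and without clone 1 in E2 it was -0.0033. With any 1 clone library left out the PCDHB median lay between -0.54 and -0.16. The ratio was below 0 in all 3 lines for 23 members (9 PCDHB, 9 PCDHG and 5 non-clustered), against 25.1% of all genes, and above 0 in all 3 for 3 members, against 27.8%. In the clones the summed PCDHB level was 97.3 CPM after E2 against 116.2 CPM in clone 1, and 113.7 against 146.6 CPM in clone 2, while in the parental line it was 46.2 against 46.0 CPM.

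Changes of at least 2-fold after E2 within a line were few. In the parental line PCDH17, PCDH12 and PCDHGA6 were higher and PCDH7, PCDH1 and PCDH11X lower, where 11.3% and 5.05% of all genes were. In clone 1 PCDHGB8P and PCDH11X were higher and PCDH7, PCDHB9 and PCDHGA3 lower (3.97% and 2.08% of all genes). In clone 2 PCDHGB8P was higher and PCDH7, PCDHB17P and PCDH1 lower (3.89% and 2.63%). These rest on 1 library per treatment and carry no test.

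Within the clones alone, no member of 49 tested passed in edgeR's quasi-likelihood test, against 0.329% of all genes. PCDH7, at -1.19 (SE 0.35, edgeR adjusted p = 0.415), and PCDH1, at -0.98 (SE 0.28, edgeR adjusted p = 0.388), were the 2 with an unadjusted p under 0.05 (8.7% of all genes), and DESeq2 called none (2.08%). A fit of the 4 clone libraries with the clone as a replicate block leaves 1 residual degree of freedom. With that block in edgeR, 7 of 49 members were lower after E2, a share close to the 15% of all genes called. They were PCDH7 (-1.19, adjusted p = 0.00289), PCDH1 (-0.97, adjusted p = 0.000122), PCDHB2 (-0.58, adjusted p = 0.00495), PCDHGC4 (-0.53, adjusted p = 0.0085), PCDHB10 (-0.72, adjusted p = 0.0471), PCDHB11 (-0.40, adjusted p = 0.0379) and PCDHB13 (-0.36, adjusted p = 0.0405). Limma-voom with the same block called 4 (12.6% of all genes).

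Whether the E2 response differed between clones and parental line was tested as an interaction. No member of 52 passed in edgeR's quasi-likelihood test, where no gene did. PCDHB8 was the 1 member at an unadjusted p under 0.05, against 7.62% of all genes, with a log2 difference of responses of -1.12 (SE 0.39, edgeR adjusted p = 0.617). DESeq2 called no member (0.186% of all genes), but it gave PCDHB8, PCDH19 and PCDH7 no adjusted p. It therefore could not have called those genes. PCDHB8 was 1.88 and 3.23 CPM in parental cells, higher after E2, and lower after E2 in both clones. For PCDH19 the difference of responses was -0.66 (SE 0.37, edgeR adjusted p = 0.621). With line as a replicate block in edgeR, PCDHB8 (-1.12, adjusted p = 0.0112) and PCDH19 (-0.69, adjusted p = 0.0345) were called. These 2 of 52 members are a smaller share than the 15.8% of all genes called.

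Known regulators of the clustered arrays were examined as a list of 26 genes, of which 23 were tested. In the knockout contrast 1 passed, lower in the clones, against 0.327% of all genes. This was FAM208A (TASOR), the scaffold subunit of the HUSH complex, which guides H3K9 methylation. It was 20.4 and 22.8 CPM in parental cells, 0.781 and 1.64 CPM in clone 1, and 2.66 and 1.57 CPM in clone 2. Its log2 difference was -3.70 (SE 0.39, adjusted p = 0.0271 in the quasi-likelihood test of edgeR, Benjamini-Hochberg adjusted). The list was drawn up with earlier results of these data known, so this call is a description. All 4 clone libraries lay below both parental ones, as the PCDHB and PCDHG sums lay above them, and a link between these measurements was not tested.

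The remaining regulators tested did not pass. At an unadjusted p of 0.05 in the edgeR test, FAM208A and DNMT3B were lower in the clones and no regulator was higher. Of all 15611 genes, 752 were lower at that threshold. DNMT3B was 23.3 and 28.5 CPM in parental cells, 17.8 and 19.0 CPM in clone 1, and 20.2 and 18.9 CPM in clone 2. It differed by -0.44 (SE 0.14, edgeR adjusted p = 0.328), and its clone libraries all lay below the parental ones (7.83% of all genes). CTCF differed by 0.03 (SE 0.15, edgeR adjusted p = 0.936), SMCHD1, a silencer of the arrays, by 0.23 (SE 0.18, edgeR adjusted p = 0.594), and SETDB1, the H3K9 methyltransferase known to repress them, by 0.16 (SE 0.13, edgeR adjusted p = 0.598). No regulator was called for E2, the interaction or clone 2 against clone 1. Of 12 genes that flank or interrupt the arrays, 11 were tested and none was called in any comparison. TAF7, a transcription factor subunit encoded between PCDHB and PCDHG, was 392 and 225 CPM in parental cells, 336 and 307 CPM in clone 1, and 251 and 267 CPM in clone 2, with a knockout difference of -0.05 (SE 0.22, edgeR adjusted p = 0.931). SLC25A2, its neighbour, had 0 to 3 counts and was not tested.

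The 24 protocadherin partners, such as adhesion and cytoskeletal proteins that bind them, had no call in any comparison and a median knockout difference of -0.05. Of 47 other cadherins 26 were tested, and none passed for the knockout or for E2. Their median knockout difference was 0.39, beside 0.01 for all genes. At an unadjusted p of 0.05 in the edgeR test, 6 were higher and 1 lower in the clones. Of all 15611 genes, 1035 were higher and 752 lower at that threshold. Between the clones, CDH12 and CDH18, both type II cadherins, were lower in clone 2. CDH12 was 29.4 and 23.5 CPM in clone 1 and 5.77 and 4.03 CPM in clone 2 (log2 difference -2.44, SE 0.16, edgeR adjusted p = 0.00562). CDH18 was 7.12 and 2.60 CPM in clone 1 and 2.36 and 0.717 CPM in clone 2 (-1.69, SE 0.22, edgeR adjusted p = 0.0338).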

How the data were processed

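Poly(A)-selected RNA from 6 cultures of Ishikawa cells was sequenced, per the labels' protocols, after libraries were made with a stranded kit. The submitters' processing notes name HISAT2, SAMtools, Subread, DESeq2 and hg19, without versions or roles. The authors deposited whole-number counts per gene and library, and these counts were used as deposited. The annotation and the use of strand in counting are not given in the sources used here. The columns written DMOS and ER were taken as DMSO and E2, the only treatments of each line. A second, normalized table was not used here.

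Differences were tested with edgeR 4.0.16 (R 4.3.3), using filterByExpr over the 4 groups, TMM scaling, the quasi-likelihood test, and Benjamini-Hochberg adjustment over all 15611 genes tested (14881 in the clones alone), with 0.05 as the threshold. The knockout and E2 effects were fitted as additive terms over 6 libraries, the interaction as 1 more term, and the clones as separate lines. Single-library log2 ratios used a prior count of 2. Depth was 28037392 to 36829479 counts per library, and intervals cover counting error only. The fits were also run on simulated counts with changes added to chosen genes and no other difference between lines. That setting lacks the pairing of libraries by line seen here, so nothing is read from it about these calls.

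The members and gene lists were chosen with earlier results of these data known. Members with a mean of at least 1 CPM and PCDH19 were given in every library. Those under 0.2 CPM were given by range, and those between by name, with values for some. In the other lists, genes with an adjusted p under 0.05 were named, with CTCF, SMCHD1, SETDB1, DNMT3B, TAF7 and SLC25A2. Clones pair by line across treatments: the clone 2 minus clone 1 difference in DMSO and in E2 correlated with r = 0.626 across 15611 genes, which are not independent replicates, and both libraries of a number come from 1 cell line. Alternatives were RLE scaling, total counts, other filters, DESeq2 1.42.0, limma-voom (limma 3.58.1), a replicate block and leaving out libraries. Promoter windows were taken from RefSeq.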

Additional observations from a re-analysis of the deposited data

How the results depend on the processing

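Counts of called protocadherin genes moved with the test and with the libraries used. For the E2 effect, total counts called 0 members and DESeq2 called 2 (1115 of all genes), where edgeR called 1 (176 of all genes). The replicate block kept PCDH7 as the 1 member called, with 384 of all genes, and 351 in limma-voom. Leaving out 1 library gave 0 to 2 members and 40 to 1704 genes. Without clone 1 there were 2 members and 745 genes, without clone 2 5 and 3353, and without the parental line 0 and 49. For E2 in the clones alone, DESeq2 called 310 genes and the replicate block 7 members and 2227 genes. The block in limma-voom, added after the data were seen, called 4 members and 1876 genes. Leaving out 1 library gave 0 to 2 members and 0 to 352 genes. For the interaction, DESeq2 called 29 genes, the replicate block 2 members and 2470 genes, and leaving out 1 clone library 0 to 1 member and 0 to 38 genes. The interaction cannot be fitted without a parental library, so that was not run.

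Between the clones, testing without a filter called 236 genes, at least 10 counts in every library 3 members and 63 genes, DESeq2 369 genes, and the 4 clone libraries alone 25 members and 2723 genes. Leaving out 1 library gave 4 to 24 members and 174 to 2754 genes. For the knockout contrast, where the members carry no test, edgeR called 51 of all genes and DESeq2 454. Leaving out 1 clone library gave 6 to 99 genes. Leaving out either parental library gave fewer than any of these fits. It leaves 1 library in the parental group, so no count is given, and the knockout calls rest on both parental libraries. Without clone 1 there were 631 genes, and without clone 2 996. Limma-voom with line as a random replicate block called 46 genes. In the tested comparisons the block changed no call of a member beyond those given for E2 in the clones and the interaction. Total counts moved the median log2 difference of all genes from 0.01 to 0.11 in the knockout contrast and from -0.04 to -0.22 in the interaction. The cause of these shifts was not tested.

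Against 1 clone alone, clustered genes at least 2-fold higher numbered 15 to 28 in DMSO (13 against both) and 12 to 22 in E2 (6 against both). With a prior count of 0.5, 10 members changed at least 2-fold after E2 in the parental line (6 with a prior count of 2). Leaving out either clone returns the ratio of the other clone to the parental sum, so it adds no separate check. Those ratios were 2.53 and 3.19 in DMSO and 2.11 and 2.46 in E2 for the PCDHB sum. For the PCDHG sum they were 1.37 and 2.05 in DMSO and 1.25 and 1.66 in E2. Without PCDHGC3, the PCDHG gene with the highest mean CPM over the 6 libraries, the PCDHG ratio in E2 was 1.80. The PCDHA ratio was 1.19 to 1.72 in DMSO and 0.686 to 1.17 in E2, where the direction depended on the clone. The non-clustered ratio was 0.797 to 0.921 in DMSO and 0.875 to 1.27 in E2. It was 0.980 in DMSO with total counts, and without PCDH9 it turned to 2.18 in DMSO and was 2.56 in E2. For single genes, the PCDHGC3 knockout difference turned to 0.062 without parental E2 (-0.26 without parental DMSO) and 0.020 without clone 1. The PCDH19 response in the clones turned to -0.16 without clone 1 in E2 (0.43 without clone 2 in E2).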
